A study of Mus musculus with 10 samples.

Results

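Of 50039 regions of open chromatin found in group 2 innate lymphoid cells (ILC2s) of mouse tissues, 1052 regions (2.10%) were open in the large intestine (LI) and the pancreas above every library of the bone marrow (BM), the lung, and the small intestine (SI). The regions were chosen by their read counts. Counts of each library were divided by its median-of-ratios size factor, 1 was added, and log2 was taken. A region was kept where its lowest value among the 4 libraries of LI and pancreas lay at least 0.2 above its highest value among the 6 libraries of BM, lung, and SI. That gap is called the margin below. The contrast of LI and pancreas with the other tissues therefore made the set. It is described here without a test.

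The data were ATAC-seq counts of ILC2s sorted from 5 tissues of wild-type C57BL/6 male mice aged 6 weeks, with 2 libraries per tissue and 50000 cells per library. No mouse carried a transgene or received a treatment. Each pool came from 16 mice where the tissue was BM, lung, or pancreas, and from 10 where it was LI or SI. ILC2s of BM, LI, lung, and pancreas were sorted by ST2 and CD25, and those of SI by Thy1 and KLRG1. The gates of all tissues but BM also used CD45 and CD127, and BM cells were sorted on another instrument than the rest. Gate, instrument, and tissue digestion thus change with tissue and cannot be told apart from it.

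ILC2s are lymphocytes without antigen receptors that reside in barrier organs and make type 2 cytokines. In ATAC-seq the Tn5 transposase inserts adapters where DNA is not packed in nucleosomes, so that promoters and enhancers, the distal elements bound by transcription factors, collect reads. GATA3 is the factor that defines ILC2s. AP-1, made of Fos and Jun proteins, is induced when lymphocytes are stimulated and binds a short palindrome found in many activation-induced enhancers.

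Sequences of 9 of the regions come first, because the account below turns on their letters. The middle 240 bases of each are given on the plus strand of GRCm38 (mm10), with matches to the AP-1 letters TGANTCA (N stands for any base) and to the GATA letters AGATAA or TGATAA, on either strand, in capitals. The first 5 show a tandem array, a short unit copied head to tail. In the *Sgcz* region the copies are imperfect, and it is not among the regions counted below with an array of at least 200 bases. In 4 of the 5, some or all copies carry AP-1 letters, while in the *Gdf3* region a unit of 6 bases is repeated without any match. The last 4 hold no long array and are nearest *Pdcd1*, the gene for an inhibitory receptor, and *Klf6*, *Bach2*, and *Ets1*, genes for transcription factors of lymphocytes. Regions carry the name of the coding gene whose transcription start site (TSS) is closest. That name is a label of position, and the target gene of a region was not measured.
Cdkal1 region, chr13:29750461-29750700: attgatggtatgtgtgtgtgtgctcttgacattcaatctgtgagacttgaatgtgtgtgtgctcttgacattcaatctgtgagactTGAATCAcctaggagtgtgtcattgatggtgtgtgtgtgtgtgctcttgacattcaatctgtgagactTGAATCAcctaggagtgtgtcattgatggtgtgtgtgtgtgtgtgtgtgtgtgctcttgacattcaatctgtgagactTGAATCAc
Nectin3 region, chr16:46463191-46463430: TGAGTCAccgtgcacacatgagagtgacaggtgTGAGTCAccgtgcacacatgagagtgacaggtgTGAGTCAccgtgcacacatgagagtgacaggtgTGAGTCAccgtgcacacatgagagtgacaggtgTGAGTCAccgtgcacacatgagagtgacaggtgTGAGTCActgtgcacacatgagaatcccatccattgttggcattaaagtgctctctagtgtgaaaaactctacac
Sgcz region, chr8:38757349-38757588: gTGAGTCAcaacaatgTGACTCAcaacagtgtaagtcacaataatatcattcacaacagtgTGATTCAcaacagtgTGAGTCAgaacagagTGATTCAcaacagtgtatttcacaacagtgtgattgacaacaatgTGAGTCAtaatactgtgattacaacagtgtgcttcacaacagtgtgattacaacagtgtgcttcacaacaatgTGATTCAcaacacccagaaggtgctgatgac
Gata3 region, chr2:9776062-9776301: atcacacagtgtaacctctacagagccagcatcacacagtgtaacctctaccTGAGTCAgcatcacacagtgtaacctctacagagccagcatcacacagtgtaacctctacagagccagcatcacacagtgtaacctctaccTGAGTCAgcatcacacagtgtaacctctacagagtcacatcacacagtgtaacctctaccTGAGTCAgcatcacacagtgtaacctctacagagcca
Gdf3 region, chr6:122615840-122616079: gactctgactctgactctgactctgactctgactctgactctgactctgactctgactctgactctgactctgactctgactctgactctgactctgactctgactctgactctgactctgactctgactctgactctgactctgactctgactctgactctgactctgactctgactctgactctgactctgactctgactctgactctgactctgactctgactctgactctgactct
Pdcd1 region, chr1:94464916-94465155: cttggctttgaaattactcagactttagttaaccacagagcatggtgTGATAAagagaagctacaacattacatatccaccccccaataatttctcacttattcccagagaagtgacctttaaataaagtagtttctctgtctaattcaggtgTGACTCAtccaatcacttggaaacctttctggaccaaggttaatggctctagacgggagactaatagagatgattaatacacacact
Klf6 region, chr13:5913317-5913556: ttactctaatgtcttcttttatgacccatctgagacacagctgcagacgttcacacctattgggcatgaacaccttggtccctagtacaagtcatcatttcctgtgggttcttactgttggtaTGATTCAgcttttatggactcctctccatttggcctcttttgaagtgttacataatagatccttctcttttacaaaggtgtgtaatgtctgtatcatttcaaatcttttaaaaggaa
Bach2 region, chr4:32320125-32320364: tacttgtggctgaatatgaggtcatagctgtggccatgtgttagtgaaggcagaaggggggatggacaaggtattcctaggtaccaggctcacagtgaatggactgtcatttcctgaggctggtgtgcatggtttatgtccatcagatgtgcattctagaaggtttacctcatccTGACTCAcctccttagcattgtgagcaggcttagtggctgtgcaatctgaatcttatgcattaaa
Ets1 region, chr9:32855639-32855878: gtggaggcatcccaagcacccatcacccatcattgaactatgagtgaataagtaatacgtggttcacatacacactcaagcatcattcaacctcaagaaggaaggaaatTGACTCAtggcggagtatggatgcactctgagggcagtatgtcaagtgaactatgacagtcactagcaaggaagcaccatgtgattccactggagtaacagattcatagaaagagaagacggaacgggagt

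The libraries held 10282987 to 32797872 counts, with a median of 71 to 259 counts per region. LI 1 and pancreas 2 were the shallowest libraries, and 23.5% and 20.8% of their counts fell in their 10 most counted regions, against 6.91% to 16.5% in the other libraries. The cell type was checked on promoter regions. All 5 ILC2 markers (*Gata3*, *Il1rl1*, *Il2ra*, *Rora*, *Klrg1*) had one, and their summed scaled counts ranged from 3634 to 5965. Among markers of other cells, 3 of 5 T cell genes had a promoter region (142 to 340 summed), 1 of 5 B cell genes, 1 of 6 macrophage or granulocyte genes, 1 of 8 acinar genes, 1 of 7 intestinal epithelium genes, and 2 of 5 genes of stroma and endothelium. In LI and pancreas the summed scaled counts were 205 to 313 for the T cell list and 269 to 449 for the macrophage or granulocyte list, against 142 to 340 and 205 to 314 in BM, lung, and SI. The B cell gene reached 57.1 to 81.4 in LI and pancreas and 27.9 to 170 elsewhere. The acinar list reached 323 to 439 in LI and pancreas and 479 to 777 elsewhere, and the epithelial list 197 to 229 and 94.1 to 389. No region was called at the promoters of the mast cell or basophil, ILC1 or NK, ILC3, and islet lists, so their level is not given. The part of other cells in the levels below was not tested.

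The median scaled count of the 1052 regions was 180 and 161 in the LI libraries, and 171 and 189 in the pancreas libraries. It was 53.4 and 60.5 in BM, 76.1 and 76.0 in lung, and 63.8 and 71.6 in SI. Over all 50039 regions the medians lay between 128 and 153, so the set stood slightly above the ordinary region in LI and pancreas and clearly below it in the other tissues. The mean log2 difference between the 4 and the 6 libraries ranged from 0.44 to 3.01, with a median of 1.37 and a middle range of 1.06 to 1.78. Raw counts of the set in the LI and pancreas libraries had a median of 128.5 and were never under 19.

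**Figure D1:**
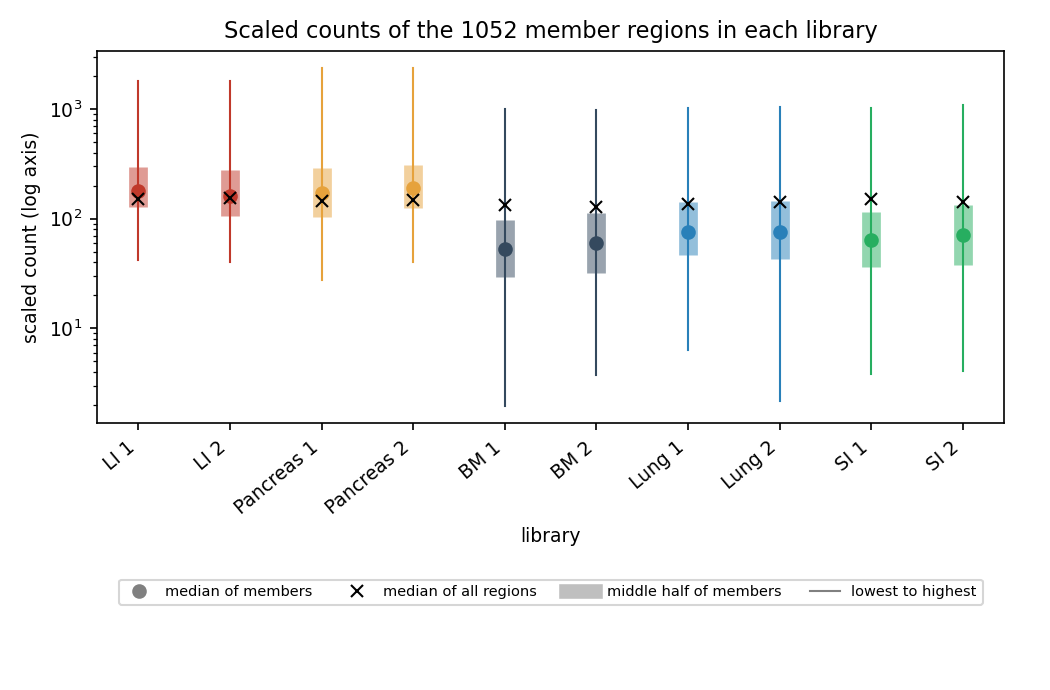
Scaled counts (log axis) of the 1052 regions in each library. Points are medians, bars the middle range, lines run from lowest to highest, and crosses are medians of all regions. Medians of the set sit at 161 to 189 in LI and pancreas and at 53.4 to 76.1 in the other tissues.

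The margin was usually small. Its median was 0.42, it was at least 0.5 in 401 regions and at least 1 in 77, and the largest was 1.98. Just inside the limit lay regions nearest *Clcn5*, *Fnip2*, and *Vps13a*, with margins of 0.201, 0.2005, and 0.2003, and just outside it regions nearest *Cdk6*, *Tlr4*, and *B3gnt3*, with 0.1997, 0.1994, and 0.1991. At the *Cdk6* region, LI and pancreas held 820 to 945 scaled counts and lung 2 held 714. Lung most often set the upper limit of the low group, since a lung library was the highest of the 6 in 517 regions, an SI library in 375, and a BM library in 160. By tissue mean, BM was the lowest of the 3 in 575 regions.

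The region with the largest margin lay 33.8 kb upstream of *Mmp13*, which codes for a collagenase. It held 127 and 69.5 scaled counts in LI and 79.6 and 86.1 in pancreas. BM held 9.70 and 16.7, lung 10.2 and 16.9, and SI 15.3 and 8.14. All 4 high libraries lay above 69 and all 6 low ones under 17, without overlap, as the rule requires. The middle 240 bases of the *Mmp13* region are an imperfect repeat of short CA-rich units, without AP-1 or GATA letters.
The *Cdkal1* region, in intron 5 of that gene, held 354 and 186 in LI and 204 and 233 in pancreas, against 27.1 to 49.5 elsewhere. At the *Gdf3* region, 5.87 kb upstream of the gene, LI held 1180 and 528, pancreas 572 and 481, and the other libraries 52.1 to 145. In the *Mmp13*, *Cdkal1*, and *Gdf3* regions LI 1 was the highest library.

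*Pdcd1* codes for PD-1, the inhibitory receptor. The region nearest to it, 412 kb upstream, held 156 and 120 in LI and 88.0 and 149 in pancreas. BM held 15.5 and 16.7, lung 12.5 and 6.56, and SI 17.3 and 26.5. At the *Klf6* region, 52.0 kb downstream of the TSS of a gene for a zinc finger factor induced on stimulation, LI held 217 and 200, pancreas 180 and 254, and the other tissues 45.5 to 62.3. These regions have no tandem array, and their LI libraries were closer to each other than those of the *Gdf3* region. The other regions among the 12 largest margins were nearest *Hs3st1*, *Nectin3*, *Sgcz*, *Slco3a1*, *Pabpc1*, *Fmr1*, and *Dusp10*, with margins of 1.54 to 1.82.

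**Figure D2:**
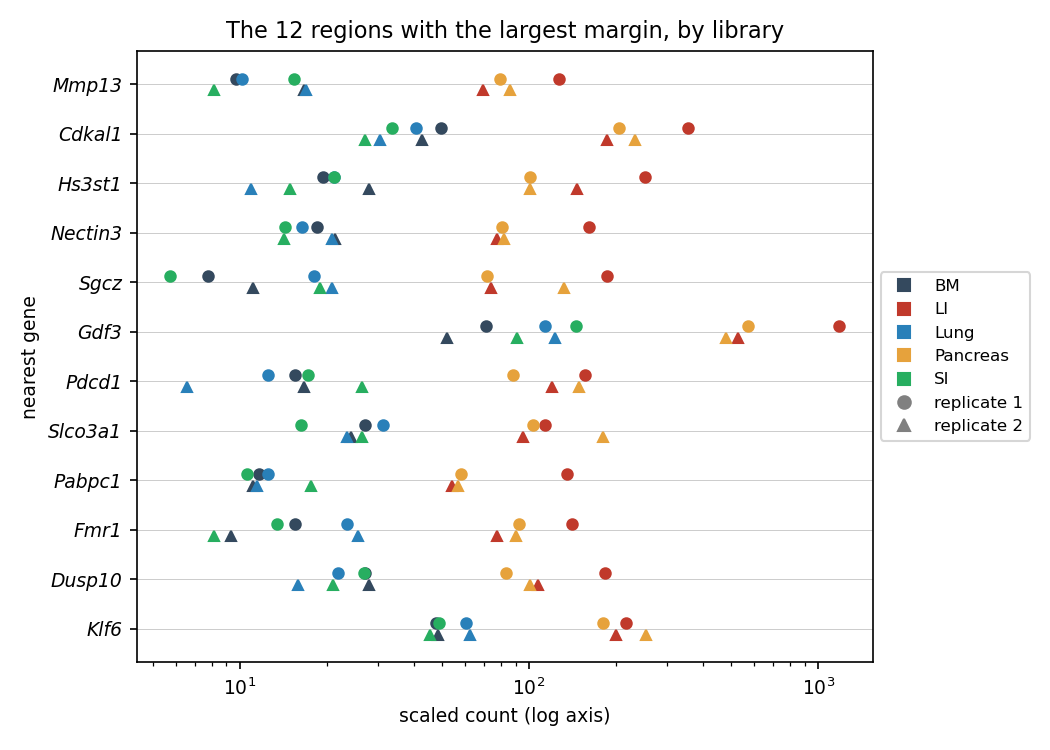
Scaled counts (log axis) of the 12 regions with the largest margin, with 1 symbol per library and colours for tissues. LI and pancreas stand to the right of the other tissues in every row by construction, and LI 1 is the highest library in 10 of the 12.

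The regions with the highest mean in LI and pancreas were nearest *Dop1b*, *Sfi1*, *Sp4*, *Iqgap2*, *Lilr4b*, and *Gvin1*, with means of 1337 to 1809. Their margins were modest, from 0.21 for *Gvin1* and *Sp4* to 0.48 for *Dop1b*. *Lilr4b* codes for a receptor of myeloid and lymphoid cells. Its region, 26.4 kb upstream, held 1409 and 1581 in LI, 1240 and 1124 in pancreas, and 631 to 947 in the other tissues. *Gvin1*, *Sfi1*, and *Lilr4b* have close copies in the genome. The authors kept uniquely mapped reads, and the counts of such regions are uncertain. Of all 1052 regions, 71 (6.75%) shared at least 100 bases at 80% identity or more with another region of the table, against 8.07% of all regions.

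The set was built from all 10 libraries, so no library is left in which its own order could be asked. Other, larger sets were therefore chosen on 1 replicate number and looked up in the other. With the same limits applied to the replicate 1 libraries alone, 3437 regions were chosen, and in 1908 of these (55.5%) both replicate 2 libraries of LI and pancreas lay above all 3 of the other tissues, against 11.7% of all regions. Chosen on replicate 2 alone, 3243 regions were found, and 1792 (55.3%) kept the order in replicate 1, against 12% of all regions.

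The set lay far from promoters. By the centre of the region, 32 regions (3.04%) were promoters, which reach from 1000 bp before a TSS to 100 bp after it, against 19.2% of all regions. Outside promoters, 509 lay within genes, 493 of them in introns, and 511 were intergenic. Among members outside promoters, the share within genes was 49.9%, against 59.6% of all regions outside promoters. The intergenic share was 50.1% against 40.4%. Median distance to the nearest TSS was 35.7 kb, against 13.6 kb for all regions, and 36.7 against 20.4 kb once promoters were left out. More than 100 kb from any TSS lay 227 regions (21.6% against 10.6%), and the farthest was 1613 kb away.
The promoter of *Cd28*, the costimulatory receptor, was one of the 32. Its region, centred 64 bp upstream of the TSS, held 571 and 837 in LI, 580 and 529 in pancreas, 116 and 230 in BM, 292 and 213 in lung, and 303 and 265 in SI.

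The regions were poor in G and C, with a median of 44.9% against 49.8% of all regions, and of 44.8% against 48.1% outside promoters. Regions outside promoters were put in 10 bins of equal size by GC content, and 4.67% of the lowest bin and 0.124% of the highest belonged to the set. The libraries themselves differed in this respect. In LI and pancreas, the median log2 value of the 10% of all regions with the lowest GC content, centred on the mean of all libraries, was 0.11 to 0.24, and in the other tissues −0.16 to −0.02. When the median trend over GC content was taken out of each library, a choice made after seeing the data, 724 regions passed the rule, of which 663 were among the 1052. The part of GC content in the choice of regions was not otherwise tested. Chromosome 18 held the largest share of members, 72 of its 1518 regions (4.74%), and chromosome 11 the smallest among the autosomes, 31 of 3722 (0.833%).

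Soft-masked sequence, the letters that the genome assembly marks as interspersed or simple repeats, was close to the ordinary. It covered a median of 11% of the bases, against 9.46% of all regions, and 11% against 10.9% outside promoters. At least 50% of bases were masked in 45 regions (4.28% against 3.89%), at least 75% in 13 (1.24% against 1.31%), and none in 131 (12.5% against 14.8%). From unmasked regions to the most masked, the share that belonged to the set moved between 1.77% and 2.53%. The most masked regions were nearest *Adgra2* (100%), *Vim* (100%), *Tespa1* (97.7%), *Bcat1* (93.4%), *Taf3* (87.4%), and *Pigm* (87.2%). *Vim* codes for vimentin, an intermediate filament. Its region, 9.60 kb downstream of the TSS, held 103 and 91.8 in LI, 98.7 and 141 in pancreas, 28.1 and 40.0 in BM, 65.1 and 61.2 in lung, and 14.4 and 8.14 in SI. A stretch of 1 region aligned to the mitochondrial genome, as did 31 of all regions.

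Tandem arrays were another matter. They were found as stretches that match themselves at 90% or more when shifted by 2 to 100 bases. The match was taken over 20 bases, or over the length of the shift where that was longer. This measure does not use the masking. At least 200 bases of such sequence lay in 62 regions (5.89%), against 1.08% of all regions. Shorter arrays showed no such difference: outside promoters, 2.44% of regions with under 50 array bases, 1.97% with 50 to under 100, and 2.06% with 100 to under 200 belonged to the set, but 5.42% with 200 to under 300 (11 of 203) and 15.9% with 300 or more (50 of 314). The masking missed much of this. Of the 62 regions, 37 had under 10% of their bases masked, and 12 had over 50%. The unit was 2 to 6 bases in 5 regions, 7 to 20 in 10, 21 to 50 in 36, and longer in 11. Among the 12 largest margins, 4 were of these regions (*Cdkal1*, *Nectin3*, *Gdf3*, and *Fmr1*). The imperfect repeats of the *Mmp13* and *Sgcz* regions were not counted among them.

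**Figure D3:**
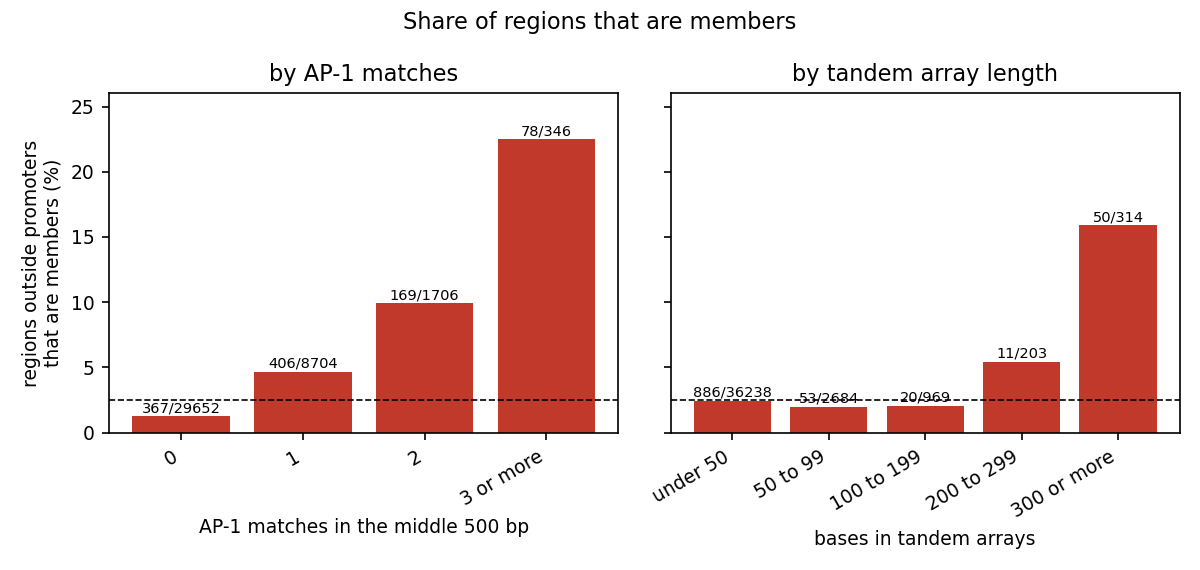
Share of regions outside promoters that belong to the set (percent), by the number of AP-1 matches and by the bases in tandem arrays. Labels above the bars give members over regions, and the dashed line is the share over all regions outside promoters. The share climbs from 1.24% to 22.5% with AP-1 matches and stands at 15.9% in the longest arrays.

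The arrays moved with particular libraries. The 62 regions had medians of 285 and 173 in LI and 171 and 196 in pancreas, against 43.2 to 71.9 in the other tissues. Over all regions with such an array, members or not, the medians were 192 in LI 1 and 191 in pancreas 2, but 130 in LI 2, 133 in pancreas 1, and 97.6 to 118 elsewhere. LI 1 and pancreas 2 were the libraries with the fewest counts. The part of depth in this was not tested. Without the 62 regions, 990 remained, and the account of places and AP-1 letters changed little: 64.4% of them held an AP-1 match.

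AP-1 letters were the clearest feature that the rule had not used. In the middle 500 bp, 668 of the 1052 regions (63.5%) held a match, against 23.2% of all regions and 26.6% of regions outside promoters. Since the set is poor in GC, regions outside promoters were also compared within its middle GC range, 41.5% to 48.1%. There, 62.6% of 511 members and 30.4% of 14100 other regions held a match. With no match, 1.24% of regions outside promoters belonged to the set (367 of 29652), with 1 match 4.66%, with 2 matches 9.91%, and with 3 or more 22.5% (78 of 346). A G or C in the middle of the palindrome was found in 559 regions (53.1%, against 21.1% of regions outside promoters), and an A or T in 204 (19.4% against 7.53%).
The matches lay near the middle of the regions. The nearest one was a median of 43 bp from the centre, against 64.5 bp in other regions outside promoters that held one, and within 50 bp in 55.1% against 42.0%. A match is a description of letters and not a measured binding site.

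**Figure D4:**
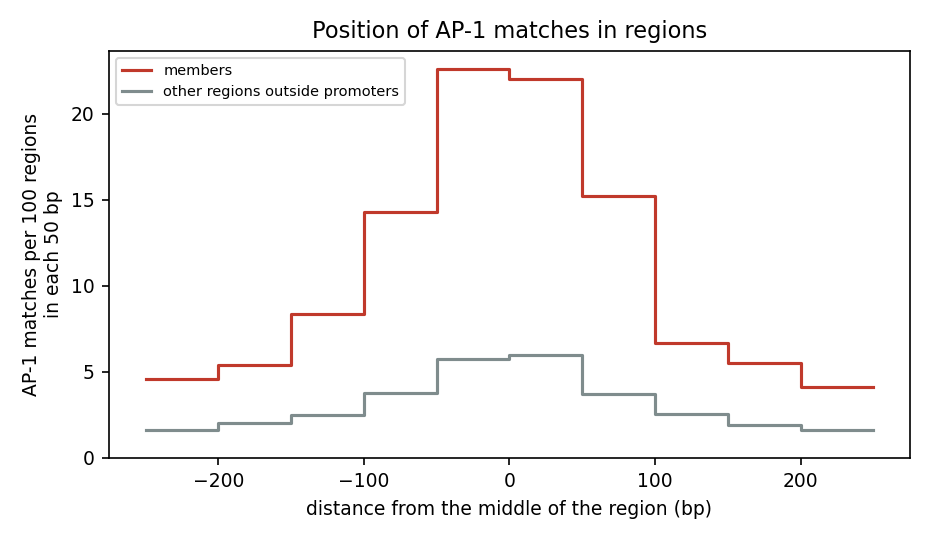
AP-1 matches per 100 regions in each 50 bp (vertical axis) by distance from the middle of the region in bp, for the 1052 regions and for other regions outside promoters. Both lines peak at the middle, and the line of the set is the higher one throughout.

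Arrays and AP-1 letters overlapped in part. Outside promoters, 29 of the 73 regions with both an array of at least 200 bases and a match belonged to the set (39.7%), as did 32 of 444 with an array but no match (7.21%). In the *Nectin3* sequence above, a unit of 33 bases carries the letters TGAGTCA in each copy, and in the *Gata3* sequence a unit of 30 bases carries them in some copies. Of the 62 array regions, 30 held an AP-1 match (48.4%) and 21 held 3 or more.

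Of the other 17 motif families searched, GATA was the most common after AP-1, in 555 regions (52.8% against 36.7% of all), but within the same GC range it was found in 56.6% of members and 52.7% of other regions. Letters bound by NR4A receptors, AAAGGTCA, stood in 82 regions (7.79% against 2.93%), and within the GC range in 8.81% against 3.89%. NR4A proteins are induced by receptor signalling in lymphocytes. RUNX letters, TGTGGTT or TGCGGTT, stood within that range at 19.6% of members against 26.8% of other regions, and AHR letters, TNGCGTG, at 2.74% against 5.06%. ETS letters, AGGAAGT or AGGAAAT, stood at 42.7% and 38.6%, and NF-kappaB letters, GGGNNTTTC or GGGNNTTCC, at 14.1% and 17.2%. The cyclic AMP element TGACGTCA, which is 1 base longer than the AP-1 palindrome, was found in 4 regions (0.380% against 1.72%). Of regions outside promoters with AP-1 and GATA letters, 6.52% belonged to the set, with AP-1 alone 5.68%, with GATA alone 1.76%, and with neither 0.886%.

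**Figure D5:**
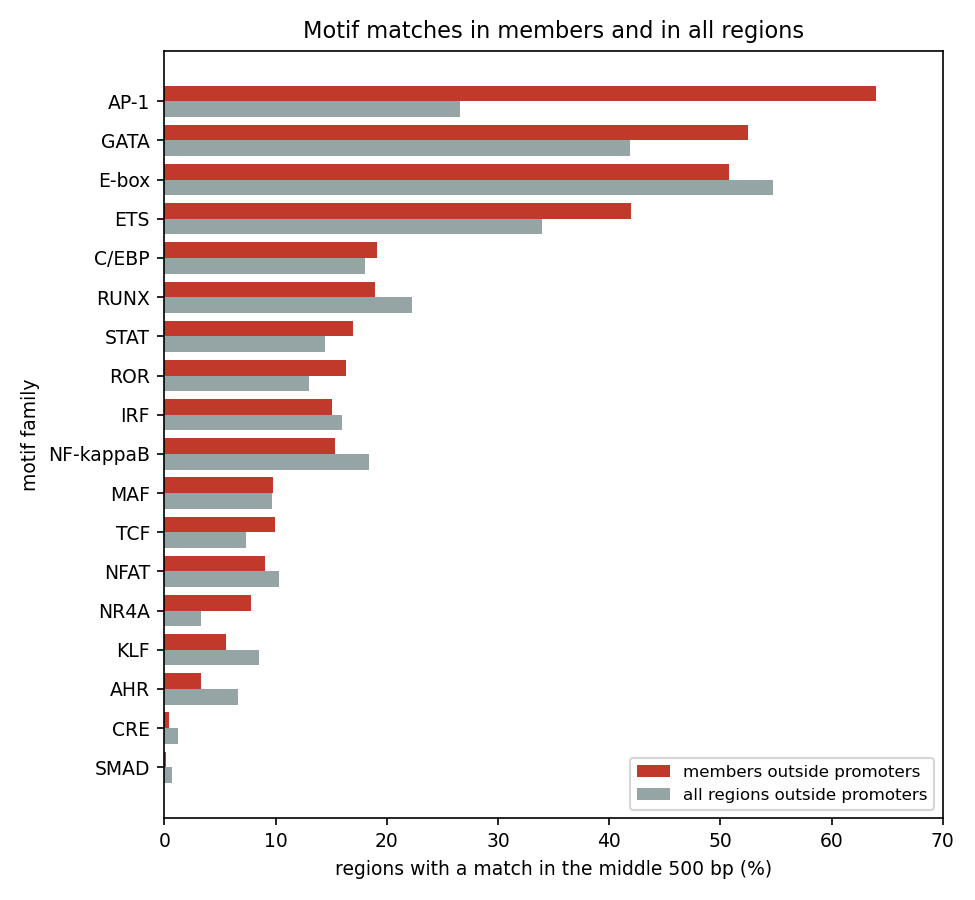
Share of regions outside promoters (percent) with a match in the middle 500 bp, for the set and for all regions outside promoters, by motif family. AP-1 has the widest gap, 64.0% against 26.6%, while GATA stands at 52.5% against 41.9%.

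The AP-1 share was high also beside sets made by the same rule for other pairs of tissues, which share libraries with this one and are given without a test. The 715 regions open in lung and pancreas held AP-1 letters in 36.8% of cases, and the 1444 open in LI and SI in 34.1%. RUNX letters stood in 24.3% and 33.5% of these, against 18.6% here. NR4A letters stood in 5.03% and 6.02%, against 7.79% here and 2.93% of all regions. GATA letters stood in 54.7% and 41.9%, against 52.8% here. Promoters made up 4.76% and 4.16%, and the median GC content was 47.4% and 46.4%.

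The 1052 regions were nearest to 807 genes, 5.67% of the 14233 genes that were nearest to any region. A single region was nearest to 640 of them, and 49 genes had 3 or more. Many lay in groups, since 409 regions (38.9%) were within 100 kb of another of the set. *Mdfic* codes for a protein with a MyoD family inhibitor domain. It had 9 of its 27 regions in the set, 7 of them within 76.8 kb. *Spry2*, a feedback inhibitor of receptor tyrosine kinase signalling, had 7 of 14, with 6 of the 8 regions in a stretch of 137 kb. *Eepd1* had 6 of 13, *Man1a*, a mannosidase of the Golgi, 6 of 19, and *Rnf144a*, a ubiquitin ligase, 5 of 17. Summed over the 7 regions, *Spry2* held 2986 and 3071 scaled counts in LI, 2975 and 2955 in pancreas, 1323 and 1525 in BM, 1508 and 1425 in lung, and 1129 and 1613 in SI.

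*Gata3* had 5 of its 65 regions in the set, all 102 to 730 kb downstream of the TSS. They belong to the list of ILC2 identity and alarmin response genes, of which 7 of 23 had such a region (*Bcl11b*, *Ets1*, *Gata3*, *Icos*, *Id2*, *Il7r*, *Klrg1*), and 18 of the 465 regions nearest to the list were in the set (3.87%), against 2.10% of all regions. *Bcl11b*, a factor needed by T cells and ILC2s, had 4 of 51, all 437 to 756 kb away. The region 756 kb downstream held 164 and 182 in LI, 180 and 265 in pancreas, and 59.0 to 107 in the others. The region nearest *Id2*, an inhibitor of E proteins required by innate lymphoid cells, held 183 and 171, 170 and 202, and 51.4 to 111. Several share their neighbourhood with other genes, and 104 of the 1052 regions lay in an intron of a gene other than the nearest one.

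The NF-kappaB and TNF superfamily list had the largest share of regions among the pathway lists, 16 of 235 (6.81%, against 2.10% of all regions). They lay at 8 of 29 genes. *Tnfaip3* codes for A20, which restrains NF-kappaB, and had 4 of its 39 regions in the set. The one 150 kb upstream held 175 and 147 in LI, 130 and 130 in pancreas, and 26.2 to 61.7 in the others. *Tnfsf14* (LIGHT, a TNF ligand) had a region with 142 and 136 in LI, 159 and 136 in pancreas, 19.4 and 26 in BM, 68.2 and 71.6 in lung, and 40.3 and 57.0 in SI. Regions nearest *Nfkbiz*, an atypical inhibitor of NF-kappaB, and *Tnfaip8* completed the 4 with the largest margins.

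Costimulatory and checkpoint receptors followed with 11 of 187 regions (5.88%), at 8 of 21 genes, among them *Pdcd1*, *Cd28*, *Icos*, *Tigit*, and *Cd226*. *Entpd1* codes for CD39, which breaks down extracellular ATP. Its region, in intron 1, held 215 and 146 in LI, 226 and 286 in pancreas, 38.8 and 56.7 in BM, 97.2 and 57.4 in lung, and 103 and 71.9 in SI. The *Tox* region, in intron 4 of a gene for a factor of lymphoid development, held 304 and 279, 260 and 336, and 48.9 to 189 in the other tissues.

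Genes of AP-1 and immediate early activation had 11 of 375 regions (2.93%), at 6 of 28 genes (*Atf3*, *Bach2*, *Fosl2*, *Jun*, *Maf*, *Myc*). *Bach2* codes for a repressor that binds AP-1 letters. Its region, 97.2 kb upstream, held 54.2 and 80.7 in LI, 163 and 130 in pancreas, and 10.8 to 21.4 in the others, so that the pancreas libraries were the higher ones. The *Jun* region, 16.6 kb downstream of the TSS, held 164 and 94.4 in LI, 88.0 and 134 in pancreas, and 13.0 to 48.2 elsewhere.

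The remaining lists were near the background of 2.10%. Type 2 effectors had 3 of 182 regions (1.65%), nearest *Il6*, *Hbegf*, and *Areg*, and none nearest *Il5* or *Il13*. *Areg* codes for amphiregulin, an epidermal growth factor receptor ligand of tissue repair, and its region held 358 and 390 in LI, 475 and 517 in pancreas, and 95 to 282 in the others. Homing and residency genes had 8 of 334 (2.40%), among them regions nearest *Itgav*, *Gpr183*, and *Cysltr1*. Lipid handling and hypoxia genes had 4 of 196 (2.04%), nearest *Ddit4*, *Hpgds*, *Pparg*, and *Egln3*. Genes of TGF-beta, retinoid, and Ahr pathways had 7 of 452 (1.55%), nearest *Runx1*, *Smad3*, *Ikzf1*, and *Acvr2a*.

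The study listed genes whose RNA was higher in ILC2s of a single tissue, from single-cell RNA-seq of the same tissues. Of its LI genes, 34 of 78 (43.6%) were nearest to at least 1 region of the set, and of its pancreas genes, 9 of 39 (23.1%). Since genes with more regions have more chances, the regions were counted too, and these were 50 of 894 (5.59%) and 12 of 225 (5.33%). For its lung, BM, and SI genes the shares were 1 of 245 (0.408%), 4 of 315 (1.27%), and 3 of 231 (1.30%). The lists come from the same kind of cells and are not an independent choice. The LI genes with the largest margins were *Pdcd1*, *Satb1*, *Ddit4*, and *Cxcl1*, and the pancreas genes *S100a10*, *Serpinb1a*, *Anxa1*, and *Map6*.
*Satb1* codes for a chromatin organiser. Its region, 203 kb upstream, held 478 and 391 in LI, 422 and 592 in pancreas, and 112 to 170 in the others. *S100a10* codes for the partner of annexin A2. Its region held 136 and 120 in LI and 99.8 and 149 in pancreas, while BM held 23.3 and 24.2, lung 49.4 and 47.5, and SI 10.6 and 10.8.

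LI and pancreas, which the rule put on the same side, were compared with the quasi-likelihood test of edgeR over the 49981 regions with any count. Few regions of the set differed between them. At an adjusted p under 0.05, 3 of the 1052 (0.285%) were higher in LI, against 2.01% of all regions tested, and 14 (1.33%) were higher in pancreas, against 1.25%. The median log2 difference was −0.02 over the set and 0.01 over all regions, and that of the set turned to 0.05 without LI 2 and to 0.09 without pancreas 2. The rule, which asks both tissues to be high, limits such differences by itself. With 2 libraries per tissue the p-values measure the spread between these libraries alone, and without pancreas 1 none of the 1052 was called in either direction, while without LI 2 there was 1 call in LI and none in pancreas. The number of calls also moved when LI 1, pancreas 2, or an SI library was left out, in the set and over all regions. The median log2 difference of the set was −0.10 without LI 1 and −0.01 without either SI library.

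The region higher in LI by the most lay 102 kb downstream of the *Gata3* TSS (chr2:9775886-9776477). LI held 761 and 554 scaled counts, pancreas 164 and 185, BM 46.6 and 54.0, lung 59.6 and 27.3, and SI 65.3 and 59.7. LI thus stood above pancreas and pancreas above the rest. The log2 difference was 1.93 (edgeR adjusted p = 0.00317). This region is the array of 30 bases shown above, which covers 81.4% of it and holds 7 AP-1 matches. The other calls in LI were nearest *Msmo1*, of sterol synthesis (log2 difference 1.32, edgeR adjusted p = 0.0269), and *Dcstamp* (1.32, adjusted p = 0.0438).
Among the 14 higher in pancreas, the largest differences were nearest *Mpp6* (−1.91, edgeR adjusted p = 0.035), *Rnf152*, *Col1a2*, and *Mdfic*. *Rnf152* codes for a ubiquitin ligase of lysosomes. Its region held 84.8 and 74.7 in LI, 213 and 372 in pancreas, and 19.0 to 38.4 in the others (log2 difference −1.86, edgeR adjusted p = 0.0149). The *Col1a2* region held 74.6 and 64.4 in LI, 218 and 292 in pancreas, and 11.2 to 44.1 elsewhere (−1.86, edgeR adjusted p = 0.0143). *Col1a2* codes for a collagen chain of fibroblasts and is only the nearest TSS, 108 kb away. The summed level of stroma and endothelium promoters was 603 to 712 in LI, 584 to 698 in pancreas, and 589 to 760 in the other tissues.

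BM, lung, and SI were compared with one another, a contrast on the low side of the rule. Against BM, 223 (21.2%) were higher in lung, where 11.5% of all regions were, and 9 (0.856%) were higher in BM, against 7.56%. Against SI, 116 (11%) were higher in lung, against 9.86%, and 33 (3.14%) in SI, against 11.1%. Between SI and BM, 172 (16.3%) were higher in SI, against 15.1%, and 49 (4.66%) in BM, against 10.7%. The median log2 difference of lung minus BM was 0.38 over the set and −0.05 over all regions, of lung minus SI 0.15 and −0.04, and of SI minus BM 0.24 and 0.00. Medians of all regions outside promoters also went with GC content in the contrasts with BM. In the lowest of the 10 bins the median of lung minus BM was 0.08 and of SI minus BM 0.09, and in the highest −0.09 and −0.09, while that of lung minus SI was −0.02 in both. Without BM 1, BM 2, or lung 2, 106, 143, or 133 regions were higher in lung than in BM (10.1%, 13.6%, or 12.6%, against 6.21%, 7.10%, or 6.24% of all regions), and leaving out any library of BM, LI, lung, or pancreas moved the 9 calls in BM to between 1 and 14. The shares higher in lung than in SI and higher in SI than in BM were near those of all regions and did not stay above them. Without lung 1 or lung 2, 68 or 65 were higher in lung than in SI (6.46% or 6.18%, against 7.02% or 5.73% of all regions), and without lung 2, 5 were higher in SI (0.475% against 4.46%). Without BM 1 or BM 2, 93 or 106 were higher in SI than in BM (8.84% or 10.1%, against 8.91% or 8.46%), and 30 or 23 in BM (2.85% or 2.19%, against 6.2% or 6.4%). All tests are from edgeR with Benjamini-Hochberg adjustment over the 49981 regions.

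The 9 regions nearest *Mdfic* went another way. All 9 were higher in lung than in SI, by 1.06 to 2.20 on the log2 scale (edgeR adjusted p from 7.51e-05 to 0.0307), and all 9 were lower in SI than in BM, with log2 differences of −2.12 to −1.02 (edgeR adjusted p from 0.000102 to 0.0373). None was called between lung and BM. The region in intron 2 of *Mdfic*, 1.78 kb downstream of the TSS, held 288 and 243 in LI, 433 and 388 in pancreas, 139 and 197 in BM, 165 and 187 in lung, and 48.0 and 29.2 in SI. SI thus held the least of the 5 tissues. Of the other 18 regions nearest *Mdfic*, 10 were higher in lung and 1 in SI, and 8 were higher in BM than in SI, so the low level in SI was not particular to the 9. SI cells were sorted by another gate, which cannot be told apart from tissue. *Atp10a*, which codes for a phospholipid flippase, had 4 of its 30 regions in the set, and of these 3 were called higher in lung than in BM and 3 higher in SI than in BM. Of its other 26 regions, 8 were higher in lung than in BM and 1 in BM, and 11 were higher in SI than in BM. Such calls were thus not particular to the 4.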

How the data were processed

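ATAC-seq libraries of sorted ILC2s were grouped by the tissue and number in their titles. According to the study's methods and the submitters' processing notes, the authors mapped reads to mm10 with Bowtie2 2.2.9, kept uniquely mapped reads, called peaks per library with MACS2 2.1.1, used HOMER to merge over tissues the peaks that both libraries shared, and deposited raw read counts per merged region and library, without normalization. Removal of duplicates or mitochondrial reads and the transposase shift are not given in the sources used here. Counts come from reads and not from molecules, so the values carry counting error only as far as reads are independent.

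Size factors, the log2 values, and the margin were computed with Python 3.11.15 (numpy 2.4.6, pandas 2.3.3). Tests between tissues used edgeR 4.0.16 in R 4.3.3, with glmQLFit and glmQLFTest, TMM factors, tissue as the only term, all 10 libraries, 2-sided p-values, and Benjamini-Hochberg adjustment over 49981 regions with at least 1 count (58 had none). The script was tested on simulated data. Genes, introns, and TSSs came from curated RefSeq models of GRCm38.p6, motif matches from both strands of the middle 500 bp, shared sequence from blastn 2.17.0+, and soft masking from the lower case letters of the assembly. Starts in the table were read as counted from 0.

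Named regions were the 12 with the largest margin, the 6 with the highest level, the 3 just inside and the 3 just outside the limit, the 4 calls with the largest difference in each direction between LI and pancreas, up to 4 per gene list by margin, genes nearest to 3 or more, and the 6 most soft-masked. Other regions and genes, among them the *Cd28* promoter and the genes compared between lung, SI, and BM, were named after their values were seen. The regions and the gene lists were chosen with earlier results of these data known.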

Additional observations from a re-analysis of the deposited data

How the results depend on the processing

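The set of 1052 regions depended on the limit and on scaling. A margin of 0, 0.5, or 1 gave 2028, 401, or 77 regions, division by library size alone 563 (556 shared), and the replicate 1 or replicate 2 libraries alone 3437 or 3243. TMM factors gave 1067, and leaving out 1 library at a time 1096 to 1571. With a margin of at least 0.5, the median TSS distance was 41.3 kb, the median GC content 44.4%, 9.23% of regions held a long tandem array, and 68.8% AP-1 letters. With library size alone, arrays stood at 8.35% and AP-1 letters at 69.8%. After the GC trend was taken out, a step added after seeing the data, promoters made up 5.94%, the median GC content was 46.5%, soft-masked bases 9.77%, and arrays 7.60%. Promoters made up 4.56% (27.4% of all regions) when taken as 1000 bp on both sides, and 6.65% (27.2%) with GENCODE genes.

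Counts of calls between tissues moved with the model, and the cause was not tested. DESeq2 or edgeR on the 4 libraries of LI and pancreas called 5 or 7 regions higher in LI (0.475% or 0.665%, against 2.51% or 2.93% of all regions). In pancreas they called 26 or 29 higher (2.47% or 2.76%, against 1.78% or 1.89%). On the 4 libraries of lung and SI they called 74 or 70 higher in lung and 14 or 16 in SI (the latter 1.33% or 1.52%, against 9.08% or 8.19%). On those of SI and BM they called 83 or 105 higher in SI and 18 or 22 in BM (the latter 1.71% or 2.09%, against 7.56% or 7.65%). Library size alone gave 3 higher in BM than in lung (0.285% against 5.21%) and 25 higher in BM than in SI (2.38% against 6.68%). At an unadjusted edgeR p under 0.05 there were 51 in LI (4.85% against 8.73% of all regions) and 78 in pancreas (7.41% against 6.48%). Between lung and BM there were 346 in lung (32.9% against 17.1%) and 26 in BM (2.47% against 14.6%). Between lung and SI there were 191 in lung (18.2% against 14.7%) and 61 in SI (5.8% against 17%). Between SI and BM there were 261 in SI (24.8% against 20.7%) and 90 in BM (8.56% against 16.8%). Leaving out 1 library gave 0 to 5 in LI, 0 to 25 in pancreas, 106 to 275 in lung and 1 to 14 in BM, 65 to 147 in lung and 5 to 38 in SI, and 93 to 164 in SI and 23 to 65 in BM. For the 9 *Mdfic* regions it gave 6 to 9 in either contrast. With both tools on 4 libraries, the shares of the set higher in lung than in SI (7.03% and 6.65%) and higher in SI than in BM (7.89% and 9.98%) lay below those of all regions (8.62% and 8.05%, 11.3% and 12.4%). No named difference between LI and pancreas changed sign. The 7 named differences between LI and pancreas lost their call in some of these fits, that of *Gata3* without pancreas 1 alone.

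Replicate differences correlated over regions at −0.218 to 0.196 in the 10 pairs of tissues. They lay over 0.1 in 4 pairs (BM and LI, LI and lung, LI and SI, lung and SI) and below 0 in the 4 pairs with pancreas, −0.178 for LI and pancreas, so the numbers were not taken to pair the libraries. With the replicate number as a block, 2 regions were called higher in LI (0.19% against 2.26% of all regions). In pancreas 14 were higher (1.33% against 1.33%). Between lung and BM, 224 were higher in lung (21.3% against 11.6%) and 9 in BM (0.856% against 7.56%). Between lung and SI, 118 were higher in lung (11.2% against 10.1%) and 31 in SI (2.95% against 11.1%). Between SI and BM, 170 were higher in SI (16.2% against 15%) and 51 in BM (4.85% against 10.5%). With the pancreas numbers crossed, added after seeing the data, 4 were higher in LI (0.38% against 2.93%) and 17 in pancreas (1.62% against 1.75%). With 2 libraries per tissue and a median of 71 counts per region in the shallowest library, a missing call at low counts does not show that tissues were alike.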
